A study of Mus musculus with 12 samples.

Results

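Silencing of β-catenin was compared with a control siRNA in SMCC cells, an immortalized line of small mouse bile duct cells (cholangiocytes). The comparison used 6 of the 12 bulk RNA libraries of the series. In 3 of them (si-Ctnnb1) the cells had been given siRNA against β-catenin with Lipofectamine RNAiMAX, and in 3 (si-CTL) a control siRNA with the same reagent. All 6 were collected at 24 hr, and the libraries are numbered si-CTL 1 to 3 and si-Ctnnb1 1 to 3. The other 6 libraries came from cells given an eGFP or an S45Y-β-catenin plasmid and were used only where stated. The members described here are all genes that passed a filter on low counts in these 6 libraries, 3484 of the 24421 genes in the table. No measured difference between the groups entered that choice.

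β-catenin has 2 jobs. At the membrane it ties cadherins to the actin cytoskeleton. In the nucleus it binds TCF/LEF factors and recruits co-activators such as the histone acetyltransferases p300 and CBP to Wnt target genes. The study asked what its loss does to gene expression in these cells, NF-κB target genes among them.

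The libraries held 221767 to 326686 counts on genes, and the tested genes took 92.2% of them. A tested gene had a median of 143 counts over the 6 libraries together, so small changes could be seen only in abundant genes. Another 9878 genes had at least 1 count but did not pass the filter, and 11059 had none. The cells were a single line, and no source says whether the 3 libraries of a group came from separate cultures. The p-values therefore measure the spread between these libraries, which may be technical. The sequences of the siRNAs were not given in the sources used here, so an effect of losing β-catenin and an effect of the siRNA itself cannot be told apart.

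Among 32 cholangiocyte markers, 23 had a count and 10 were tested. The keratins Krt8, Krt18 and Krt19 were present in every library, with 31 to 172 counts each. Epcam and Cftr had no count in any library, and Krt7 had 0 to 4. Gapdh, which most cells use, had 0 to 6. With the strand setting of the counting not given in the sources used here, a gene at 0 in this table is only listed at 0 and cannot be taken as not expressed. Of 31 hepatocyte markers 21 were at 0, Alb among them, and of 26 leukocyte markers 19 were at 0, Ptprc among them. Pecam1, an endothelial marker, was also at 0 in all 6. Some markers of other cells were not: the hepatocyte markers Slc10a1 and Apoa2 had 257 to 353 CPM (CPM are counts-per-million) and 154 to 228 CPM, and the endothelial marker Stab1 162 to 227 CPM. Krt8 had 150 to 239 CPM and Krt19 108 to 189 CPM. The summed level of the cholangiocyte markers was 1577 to 1861 CPM in si-CTL and 1287 to 1299 CPM in si-Ctnnb1, and the groups did not overlap. That of the leukocyte markers was 97.9 to 144 CPM and 169 to 208 CPM, also with no overlap. Without Cd14 these sums were 77.7 to 110 CPM and 89.4 to 131 CPM and overlapped. In bulk libraries fewer cells of a type and less RNA per cell cannot be told apart, and the part of these markers in the results was not tested.

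A library and a transcript stood apart and touch several results. Rn45s, the precursor of ribosomal RNA, took 5.49%, 3.64% and 3.79% of the counts in si-CTL and 2.44%, 1.61% and 2.39% in si-Ctnnb1. The library si-CTL 1 was the shallowest and had the most Rn45s. Of the 26 genes that fell on silencing, 21 had their highest si-CTL value in that library. Leaving Rn45s out of the counts gave 57 calls in place of 54. The part of the library and of Rn45s in the other changes was not tested.

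Ctnnb1 itself, the check of the labels, was lower in every silenced library. Its level was 64.5, 124 and 101 CPM in si-CTL and 0, 38.4 and 10.5 CPM in si-Ctnnb1. The values did not overlap, and the gene fell 5.82-fold (log2 fold change -2.54 ± 0.55, SE; adjusted p = 0.00491 by edgeR's quasi-likelihood test). These levels rested on 13 to 38 counts a library in si-CTL and 0 to 11 in si-Ctnnb1. The adjusted p was 0.0701, 0.0506 and 0.0855 without si-CTL 2, without si-Ctnnb1 1 and without si-Ctnnb1 3. Exons of Ulk4 on the opposite strand overlap those of Ctnnb1 over 759 bases.

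At an adjusted p below 0.05, 54 genes changed, which is 1.55% of those tested. They comprised 28 that rose (0.804%) and 26 that fell (0.746%). All 54 had groups that did not overlap, as did 17.8% of all tested genes (8.93% higher and 8.9% lower in si-Ctnnb1). The 2 directions differed in kind. The genes that fell did so by more, with a median log2 fold change of -0.95, and 11 of them fell at least 2-fold. Those that rose did so by a median of 0.49, and 3 rose at least 2-fold. The genes that rose were abundant, at a median of 2165 CPM against 327 CPM for those that fell and 88.6 CPM for all tested genes. In the plot of change against abundance most genes that rose lie just above the mass of abundant genes. Exceptions are Cryz, Cox15 and Ptdss1, at 107, 124 and 231 CPM. Among the genes that fell, Ahsa2 and B3gat2 were abundant and fell by only 0.30 and 0.35 on the log2 scale.

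**Figure D1:**
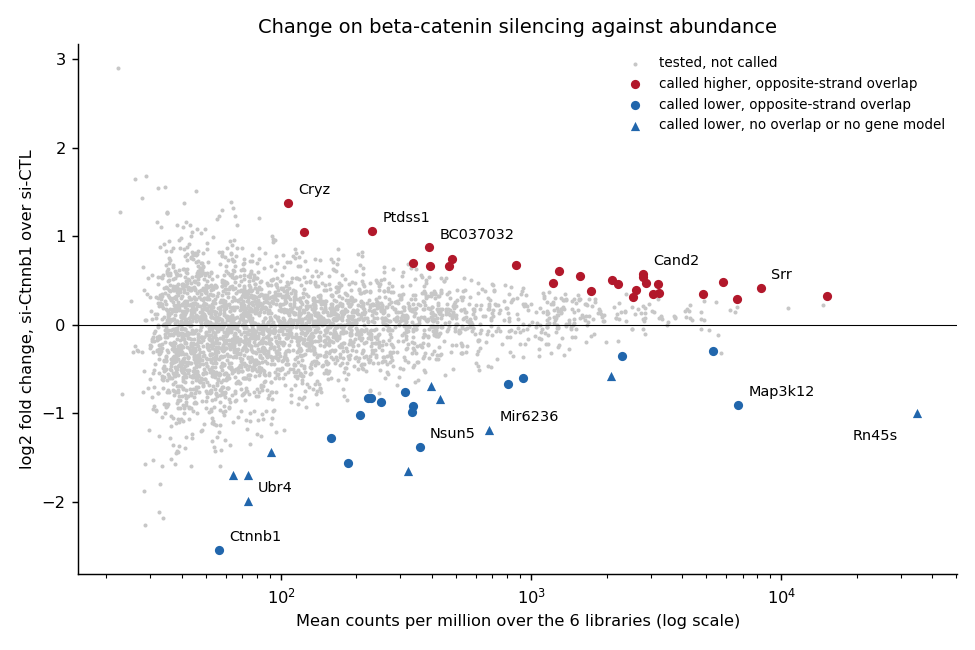
Each point is 1 of the 3484 tested genes, with its mean level over the 6 libraries in CPM (log axis) against its log2 fold change in si-Ctnnb1 over si-CTL. Red and blue points are the 28 genes that rose and the 26 that fell at an adjusted p below 0.05, and triangles are genes that fell and have no overlap with an opposite-strand gene or no gene model. Ctnnb1 has the lowest called value, at -2.54.

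The calls depended on single libraries. With each of the 6 libraries left out in turn, 19 of the 54 genes kept an adjusted p below 0.05 every time, 12 that rose and 7 that fell. All 54 kept their direction and an unadjusted p of 0.05 or less in each of those fits. The number of calls was 34 without si-CTL 1 and 35, 33 and 31 without si-Ctnnb1 1, 2 and 3. Nsun5, Mir6236, Rn45s, Srpk2 and Map3k12 were among those that fell every time.

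Genes that open chromatin were among those that fell. Ep300 encodes p300, the acetyltransferase that β-catenin recruits. Its level was 124, 85.2 and 86.6 CPM in si-CTL and 58.8, 20.9 and 10.5 CPM in si-Ctnnb1, a 3.24-fold fall with no overlap (log2 fold change -1.70 ± 0.46; adjusted p = 0.0483 by edgeR). This call is near the threshold. It held without si-CTL 3 and without si-Ctnnb1 1, and was lost without any of the other 4 libraries, where the adjusted p reached 0.274. The log2 fold change ran from -2.60 without si-Ctnnb1 1 to -1.30 without si-Ctnnb1 3.

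Ep300 was one of 52 tested co-activators and chromatin remodellers. Of the 52, 2 fell at an adjusted p below 0.05 and none rose. At a p at or under 0.05 before adjustment (called unadjusted p from here on), 10 were lower and none higher, where 6.08% of all tested genes were lower and 6.43% higher. The list's median log2 fold change was -0.21, against -0.0033 for all tested genes. The 10 included Kmt2a, Kmt2d, Crebbp, Smarcc1, Smarca4, Bptf, Smarcc2 and Chd4, whose log2 fold changes ran from -2.11 to -0.61 with adjusted p-values of 0.0739 or more. Kmt2a, a histone H3 lysine 4 methyltransferase, had 59.6, 52.4 and 46.9 CPM in si-CTL and 7.35, 6.98 and 21 CPM in si-Ctnnb1. Smarca4 (BRG1), the motor of the BAF remodelling complex, had 159, 187 and 199 CPM in si-CTL and 95.6, 126 and 73.4 CPM in si-Ctnnb1. For both, the silenced libraries were below all controls. Crebbp (CBP), the partner of p300, averaged 78.4 ± 12.4 CPM (SD, n = 3) in si-CTL and 35.5 ± 7.11 CPM (SD, n = 3) in si-Ctnnb1. Without si-CTL 1, 7 members were lower at that threshold, and 9 or 10 without each of the others. The whole list took 0.688% to 0.744% of the counts in si-CTL and 0.605% to 0.634% in si-Ctnnb1. Of 24 chromatin repressors 2 were lower at an unadjusted p and none higher, with a median log2 fold change of 0.08.

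Ubr4 is a very large E3 ubiquitin ligase of the N-degron pathway. Its level was 109, 157 and 86.6 CPM in si-CTL and 29.4, 10.5 and 49 CPM in si-Ctnnb1, a 3.96-fold fall (log2 fold change -1.98 ± 0.43; adjusted p = 0.00491 by edgeR). The groups did not overlap, but the adjusted p was 0.0908 without si-CTL 2 and 0.0502 without si-Ctnnb1 2. Of 34 tested ubiquitin ligases and conjugating enzymes, 6 were lower at an unadjusted p and none was higher. The shares over all tested genes were 6.08% lower and 6.43% higher. The median log2 fold change of the 34 was -0.25. Besides Ubr4 the 6 were Fbxo41, Wwp1, Huwe1, Nedd4 and Fbxl2. Their number was 2 without si-CTL 2 and 3 without si-CTL 1.

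On the list of tRNA synthetases and tRNA modification, 4 of 28 tested genes fell, where 0.746% of all tested genes did. Farsb encodes a subunit of cytosolic phenylalanyl-tRNA synthetase, Vars the cytosolic valyl-tRNA synthetase and Lars2 the mitochondrial leucyl-tRNA synthetase. Nsun5 was on the list but methylates a cytosine in 28S ribosomal RNA. Nsun5 had 635, 472 and 448 CPM in si-CTL and 199, 147 and 248 CPM in si-Ctnnb1 (2.59-fold lower; log2 fold change -1.38 ± 0.20; adjusted p = 2.19e-05 by edgeR). Farsb had 258, 216 and 202 CPM in si-CTL and 58.8, 126 and 90.9 CPM in si-Ctnnb1 (2.42-fold lower; adjusted p = 0.0042 by edgeR, 0.0643 without si-Ctnnb1 1). Every silenced library lay below every control for both genes. Vars averaged 556 ± 192 CPM in si-CTL and 307 ± 44.7 CPM in si-Ctnnb1 (SD, n = 3 each), and its 3 control values were spread from 360 to 745 CPM. Its adjusted p was 0.0127 by edgeR and reached 0.212 without si-CTL 1. Lars2, the most abundant of the 4, fell 1.5-fold, from 2499 ± 202 to 1670 ± 440 CPM (SD, n = 3 each). Its adjusted p was 0.00178 by edgeR and 0.0855 without si-Ctnnb1 3.

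The list had 28 tested members, of which none rose. Another, Iars, was lower at an unadjusted p only, where 6.08% of all tested genes were lower at that threshold. The median of the list was -0.07, and 23 of the 28 passed neither threshold. Ctu2, which thiolates the wobble uridine of tRNAs, was not on the list and fell 1.52-fold (log2 fold change -0.60 ± 0.13; adjusted p = 0.00489 by edgeR, up to 0.105 with a library left out). Nsun5, Farsb and Ctu2 overlap exons of Pom121, Sgpp2 and Piezo1 on the opposite strand, and Vars and Lars2 overlap none.

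**Figure D2:**
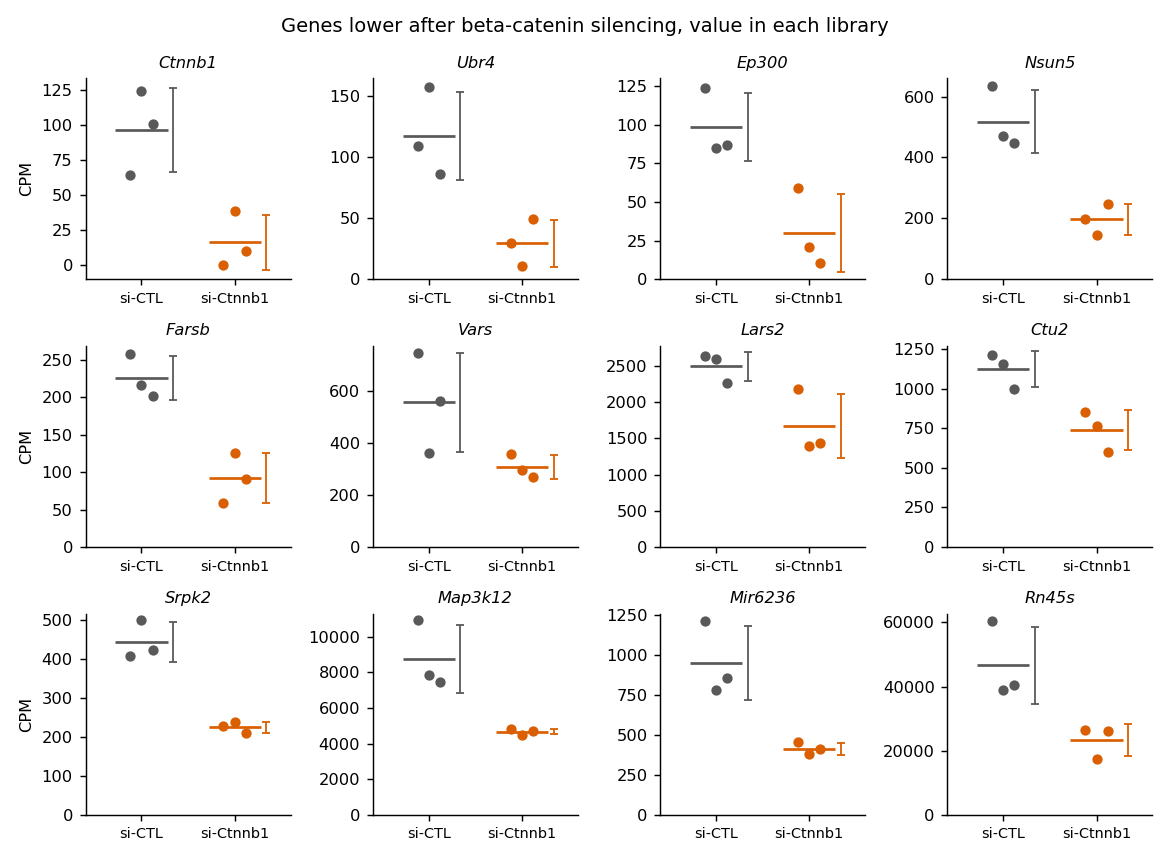
Level of 12 genes that fell, in CPM, in each of the 3 si-CTL (grey) and 3 si-Ctnnb1 (orange) libraries. Horizontal lines are group means and the bars beside them are 1 SD (n = 3). In each panel every si-Ctnnb1 value is below every si-CTL value, and si-CTL 1 is the highest control for Ep300, Nsun5, Farsb, Vars, Lars2, Ctu2, Map3k12, Mir6236 and Rn45s.

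The kinases Srpk2 and Map3k12 fell in all 6 fits with a library left out. Srpk2 phosphorylates the SR proteins that guide splicing. It had 407, 501 and 422 CPM in si-CTL and 228, 237 and 210 CPM in si-Ctnnb1, a 1.98-fold fall with little spread (log2 fold change -0.98 ± 0.19; adjusted p = 0.00102 by edgeR). Map3k12 (DLK), a kinase upstream of JNK, was among the 10 most abundant tested genes. It had 10955, 7852 and 7442 CPM in si-CTL and 4832, 4504 and 4700 CPM in si-Ctnnb1 (1.87-fold; log2 fold change -0.90 ± 0.09; adjusted p = 1.19e-08 by edgeR). Map3k12 overlaps Pcbp2, an RNA-binding protein gene on the opposite strand, over 1573 bases. Pcbp2 had a mean of 341 CPM and a log2 fold change of -0.20. Srpk2 overlaps Kmt2e over 972 bases, and Kmt2e had a mean of 242 CPM and a log2 fold change of -0.14. The strand setting of the counting was not given in the sources used here. Whether reads from the 2 strands of such a pair were kept apart is therefore not known. Map3k12 was on the list of EGF receptor, Ras and MAP kinase genes. The list took 0.963% to 1.26% of the counts in si-CTL and 0.654% to 0.688% in si-Ctnnb1. Of its 16 tested members 2, Map3k12 and Dusp16, were lower at an unadjusted p, where 6.08% of all tested genes were. Map3k12 alone took 0.696% to 0.995% and 0.414% to 0.444%, and the rest of the list 0.264% to 0.302% and 0.237% to 0.259%.

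Transcripts tied to ribosomal RNA fell. Rn45s had 60481, 38952 and 40553 CPM in si-CTL and 26522, 17548 and 26112 CPM in si-Ctnnb1 (1.99-fold lower; adjusted p = 1.61e-08 by edgeR). Mir6236 had 1211, 776 and 855 CPM in si-CTL and 452, 377 and 409 CPM in si-Ctnnb1, 2.27-fold lower (log2 fold change -1.18 ± 0.15; adjusted p = 2.52e-06 by edgeR). In both, each silenced library was below each control. Mir6236 is annotated as a microRNA gene, although its hairpin resembles a stretch of 28S ribosomal RNA. The counts here are of RNA fragments over the gene and are not a measure of the mature microRNA.

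The other genes that fell had varied roles. Prrc2a and Prrc2c, related proline-rich proteins that bind RNA, fell 3.23-fold and 1.61-fold. Angptl2, a secreted angiopoietin-like protein, fell 2.71-fold and Kcnj13, an inward rectifier potassium channel, 2.02-fold. Degs2, Pi4kb, Nme7, St5, B3gat2, Ahsa2, Gm13032 and 1700099I09Rik made up the rest, with log2 fold changes from -0.92 to -0.30. Of these 12 genes, none kept its call with every library left out in turn.

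All 28 genes that rose overlap an exon of a gene on the opposite strand. Of all tested genes with a gene model 53% do, and of the 26 that fell 16 do. Among the 1617 tested genes with no such overlap, none rose and 9 fell at an adjusted p below 0.05. At an unadjusted p, 44 of the 1617 were higher and 103 lower, against 169 higher and 108 lower of the 1826 with an overlap. Abundance moved with this too. Of the 28, 26 were in the highest of 4 equal classes of abundance. In that class 123 of 639 overlapping genes (19.2%) were higher at an unadjusted p, and 13 of 215 without an overlap (6.05%). Their median levels were 456 CPM and 332 CPM, so abundance was not quite equal. In the least abundant class the shares were 2.66% and 2.08%.

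**Figure D3:**
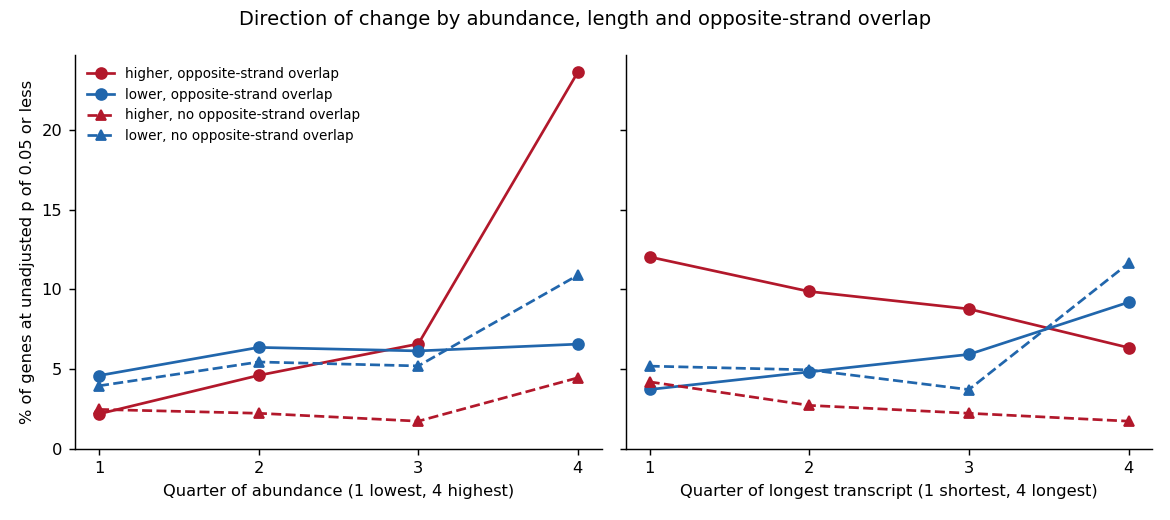
Share of tested genes at an unadjusted p that were higher (red) or lower (blue) in si-Ctnnb1, in percent, by 4 equal classes of mean abundance (left) and of longest annotated transcript (right), cut separately within genes with and without an overlap. Solid lines with circles are genes that overlap an exon of an opposite-strand gene and dashed lines with triangles are genes that do not. The share of higher genes reached 23.6% in the most abundant overlapping genes (314 CPM or more, against 123 CPM or more for the class without an overlap), and the share of lower genes reached 11.6% in the longest genes with no overlap.

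The genes called higher in all 6 fits with a library left out rose by less than 2-fold. Dnajc19, a co-chaperone of the mitochondrial import motor, had 1261, 1291 and 1270 CPM in si-CTL and 1897, 1849 and 1850 CPM in si-Ctnnb1. It rose 1.46-fold (log2 fold change 0.55 ± 0.10; adjusted p = 0.000537 by edgeR). Ncaph2, a subunit of condensin II, had 2268, 2264 and 2299 CPM in si-CTL and 3089, 3262 and 3609 CPM in si-Ctnnb1, also 1.46-fold (adjusted p = 0.000102 by edgeR). The spread within a group was a small part of the difference for both genes.

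Cand2 is known for binding cullin scaffolds. It had 1985, 2309 and 2411 CPM in si-CTL and 3324, 3663 and 3056 CPM in si-Ctnnb1 (1.49-fold; log2 fold change 0.58 ± 0.09; adjusted p = 9.65e-05 by edgeR). It overlaps the ribosomal protein gene Rpl32 over 53 bases. Srr, the enzyme that makes D-serine, had 6765, 7649 and 6811 CPM in si-CTL and 9413, 9297 and 9627 CPM in si-Ctnnb1 (1.33-fold; adjusted p = 0.000214 by edgeR). It overlaps Tsr1, a ribosome assembly factor, over 1240 bases. Silenced libraries were above all controls for both.

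Rfxank, a subunit of the RFX complex that binds MHC class II promoters, rose 1.39-fold, and Sla2, an adaptor best known in lymphocytes, also 1.39-fold. Spag17 (1.42-fold) and Rpgrip1 (1.38-fold) belong to cilia, the first to the axoneme and the second to the photoreceptor connecting cilium. The others were the noncoding transcripts E230016M11Rik, 2310068J16Rik, 9930014A18Rik and BC037032, which rose 1.26-fold, 1.53-fold, 1.6-fold and 1.83-fold. E230016M11Rik was among the 10 most abundant tested genes, at 13519 ± 1239 CPM in si-CTL and 16990 ± 254 CPM in si-Ctnnb1 (SD, n = 3 each).

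**Figure D4:**
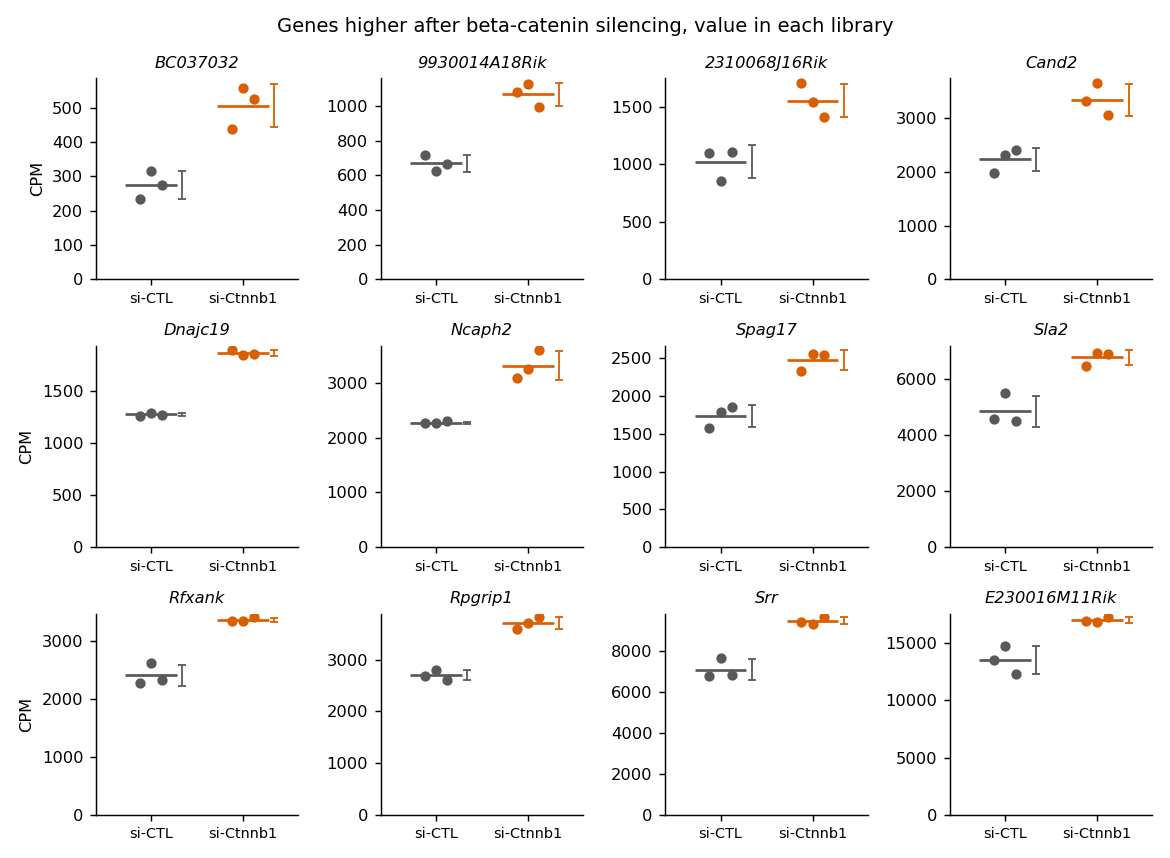
Level of the 12 genes that rose in every fit with a library left out, in CPM, in each of the 3 si-CTL (grey) and 3 si-Ctnnb1 (orange) libraries, ordered by fold change. Horizontal lines are group means and the bars beside them are 1 SD (n = 3). All orange points are above all grey points, and rises run from 1.26-fold in E230016M11Rik to 1.83-fold in BC037032.

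The 3 largest rises were in less abundant genes with roles in metabolism. Cryz, a quinone reductase, had 84.4, 32.8 and 65 CPM in si-CTL and 158, 150 and 150 CPM in si-Ctnnb1 (2.6-fold; adjusted p = 0.0134 by edgeR, up to 0.124 with a library left out). Ptdss1, a phosphatidylserine synthase, rose 2.09-fold and kept its call except without si-Ctnnb1 1 (adjusted p = 0.0776). Cox15, needed to make the heme of cytochrome oxidase, rose 2.07-fold (adjusted p = 0.0421 by edgeR) and lost its call without any of the 6 libraries. All 3 overlap an opposite-strand gene, which are Tyw3, Mterf3 and Entpd7.

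Opposite-strand neighbours of the genes that rose were less abundant in the table than the genes themselves. Of the 28, 27 had a neighbour in the table, and in all 27 the named gene had the higher mean level, by a median of 17.6 times. Of the neighbours 18 were tested and none was called. By sign 9 were higher and 9 lower. Krr1, opposite Glipr1, was higher at an unadjusted p (log2 fold change 0.43), as was Rpl32 (0.67). Tsr1, opposite Srr, was lower (-0.34). Which gene of a pair a change belongs to was not tested.

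Length also moved with direction. Of the 861 genes whose longest transcript had 4819 bases or more, 89 were lower and 30 higher at an unadjusted p, with a median log2 fold change of -0.10. Of the 861 shortest, 38 were lower and 72 higher, with a median of 0.05. The long genes included Ubr4 (15928 bases), Prrc2c (11502), Ep300 (9566) and Prrc2a (6888). Relative to its mean over the 6 libraries, the level of the long genes was higher by 0.07, 0.09 and 0.04 log2 units in the si-CTL libraries. In the si-Ctnnb1 libraries it was lower, at -0.05, -0.07 and -0.07. Without si-CTL 1 64 long genes were lower and 31 higher. The part of length in the fall of the chromatin genes was not tested.

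The genes of the Wnt pathway other than Ctnnb1 gave no call. Of 13 tested genes of the pathway, Ctnnb1 alone passed either threshold. At an unadjusted p 6.08% of all tested genes were lower. Among 6 tested Wnt targets 1 was lower at an unadjusted p, and none without si-CTL 1, si-Ctnnb1 1 or si-Ctnnb1 2. This was Ccnd1, cyclin D1, with 472, 331 and 375 CPM in si-CTL and 257, 223 and 360 CPM in si-Ctnnb1 (adjusted p = 0.278 by edgeR). The value in si-Ctnnb1 3 overlapped the controls, and the gene overlaps an opposite-strand exon. Axin2 had no count in any library and Lgr5 had 2 counts, both in 1 si-CTL library. The Wnt target list took 0.131% to 0.148% of the counts in si-CTL and 0.113% to 0.12% in si-Ctnnb1.

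Of 72 NF-κB genes and targets in the table, 6 were tested, none was called and 2 were higher at an unadjusted p. Over all tested genes 6.43% were higher at that threshold. Cxcl5, a neutrophil chemokine, had 2, 7 and 4 counts in si-CTL and 13, 12 and 16 in si-Ctnnb1. Bcl2l1 (Bcl-xL), an inhibitor of apoptosis, had 10, 9 and 9 counts in si-CTL and 24, 21 and 32 in si-Ctnnb1. The groups did not overlap for either gene, and the adjusted p was 0.206 for Cxcl5 and 0.0951 for Bcl2l1 by edgeR. Rela and Nfkb1, the p65 and p50 subunits, had 0 to 4 and 2 to 9 counts a library and were not tested. Ccl2 had no count in si-CTL and 5 over the si-Ctnnb1 libraries. No statement on change is made for Rela, Nfkb1 or Ccl2 at these counts.

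RefSeq gave 3 promoter windows for Bcl2l1, and the one shown is that which holds the NF-κB core searched for. The other 2 held no match. In it 2 matches to GGNNTTTCC or its reverse complement GGAAANNCC start 218 and 202 bases before the transcript start, and they are in capitals. The window of 250 bases before and 50 after the start lies at chr2:152830668-152830967 on the minus strand (RefSeq, GRCm38.p6).
Bcl2l1 promoter: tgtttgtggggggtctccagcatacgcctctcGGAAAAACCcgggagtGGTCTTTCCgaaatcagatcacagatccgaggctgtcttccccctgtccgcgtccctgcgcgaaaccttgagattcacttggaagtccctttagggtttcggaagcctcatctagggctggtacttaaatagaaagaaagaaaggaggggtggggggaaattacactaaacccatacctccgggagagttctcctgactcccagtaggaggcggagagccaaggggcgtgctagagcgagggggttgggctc

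Neither this core nor a TCF/LEF core was common in the promoters of the genes that changed. Windows of the same kind were found in RefSeq for 2619 tested genes, 20 of those that rose and 18 of those that fell. The NF-κB core was in 7.52% of the 2619, in none of the 20 and in 1 of the 18, 1700099I09Rik. CTTTGAT, a TCF/LEF core, or its reverse complement ATCAAAG was in 3.05% of the 2619 and in none of the 38. At an unadjusted p, the NF-κB core was in 10 of 156 genes that were higher and 10 of 168 that were lower. A match of letters is not a site, and its absence from this window says nothing of the factor.

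Extracellular matrix genes moved both ways. Of 17 tested, 5 were lower and 3 higher at an unadjusted p, none passed adjustment, and the median log2 fold change was -0.22. Over all tested genes 6.08% were lower and 6.43% higher at that threshold. The list's share of counts overlapped between the groups, at 0.413% to 0.505% in si-CTL and 0.459% to 0.484% in si-Ctnnb1. The 5 that were lower were Col6a2, Col6a1, Fn1, Spp1 and Lama5, which build or decorate the matrix. Col6a2 had 74.5, 78.6 and 105 CPM in si-CTL and 14.7, 34.9 and 35 CPM in si-Ctnnb1 (adjusted p = 0.0594 by edgeR). Fn1, fibronectin, had 278, 167 and 242 CPM in si-CTL and 132, 122 and 133 CPM in si-Ctnnb1 (adjusted p = 0.0838 by edgeR). For both, all silenced libraries were below the controls. The 3 that were higher were the lysyl oxidase Loxl3 and the adhesion genes Itgb1 and Ilk. Fn1, Loxl3 and Ilk overlap opposite-strand exons. The 5 lower genes were 2 without si-CTL 2 and 3 without si-Ctnnb1 3.

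Of 10 tested cholangiocyte markers, 3 were lower at an unadjusted p (Pkd1, Spp1 and Krt18) and none higher, with a median log2 fold change of -0.33 and no call. The 3 were 1 without si-Ctnnb1 3. Of 48 actin and myosin genes 5 were lower and 1 higher, with Flnc, Myo18a, Myo10, Plec and Myh9 lower and Pfn1 higher. The 5 were 1 without si-CTL 3 and 3 without si-CTL 1 or si-Ctnnb1 2. Among 10 tested adherens junction genes only Dsg2, a desmosomal cadherin, was lower, and none without si-CTL 1, si-CTL 2 or si-Ctnnb1 3. For these 3 lists the shares over all tested genes were 6.08% lower and 6.43% higher at an unadjusted p.

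Several large groups of housekeeping genes had members that were higher and members that were lower at an unadjusted p. Among all tested genes 6.43% were higher and 6.08% lower. Of 55 cytosolic ribosomal proteins 5 were higher and 2 lower (median 0.09), and the 5 were 0 without si-CTL 1, 2 without si-CTL 3 and 1 without si-Ctnnb1 2. Of 52 ribosome biogenesis genes 2 were higher and 2 lower. Of 51 splicing factors 5 were higher and 6 lower, with Prpf39 risen and Srpk2 fallen at an adjusted p below 0.05. Of 39 translation factors 1 was higher and 2 lower, and of 52 DNA replication and cell cycle genes 2 were higher and 4 lower, Mki67 among the latter (adjusted p = 0.115 by edgeR). Apart from the ribosomal proteins, these counts moved by up to 4 genes when a library was left out.

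Chaperone and mitochondrial lists gave few calls. For comparison, 6.43% of all tested genes were higher and 6.08% lower at an unadjusted p. Of 43 heat shock proteins and chaperonins 5 were higher and 1 lower at an unadjusted p, with a median of 0.06 and Dnajc19 the only call. The 5 were 3 without si-CTL 1, si-CTL 3, si-Ctnnb1 1 or si-Ctnnb1 3. Hspa1l had 298, 239 and 206 CPM in si-CTL and 434, 391 and 357 CPM in si-Ctnnb1 (adjusted p = 0.0605 by edgeR). Of 21 respiratory chain and ATP synthase genes 3 were higher and 1 lower, and of 16 genes of mitochondrial translation 2 were higher and 1 lower. Their medians were 0.12 and 0.17. Without si-CTL 3 or si-Ctnnb1 3 the median of the respiratory chain list was -0.0049 or -0.013, and without si-Ctnnb1 3 that of the chaperones was -0.013. With a library left out the numbers of higher genes ran from 2 to 5 and from 1 to 3. The mitochondrial translation list took 1.29% to 1.39% of the counts in the controls, and 1.47% after silencing in every library. This share was summed over all 101 members in the table, of which 16 were tested. Of the 16, 13 overlap an exon of an opposite-strand gene, as did every gene that rose. In lipid synthesis, 3 of 14 were lower and 2 higher, and the 3 were 1 without si-CTL 2, si-Ctnnb1 2 or si-Ctnnb1 3. The 3 were Srebf1, Fads2 and Tm7sf2, which act in the making of fatty acids and sterols, and Srebf1 averaged 144 ± 56.2 CPM in si-CTL and 61.6 ± 5.23 CPM in si-Ctnnb1 (SD, n = 3 each; adjusted p = 0.0568 by edgeR).

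**Figure D5:**
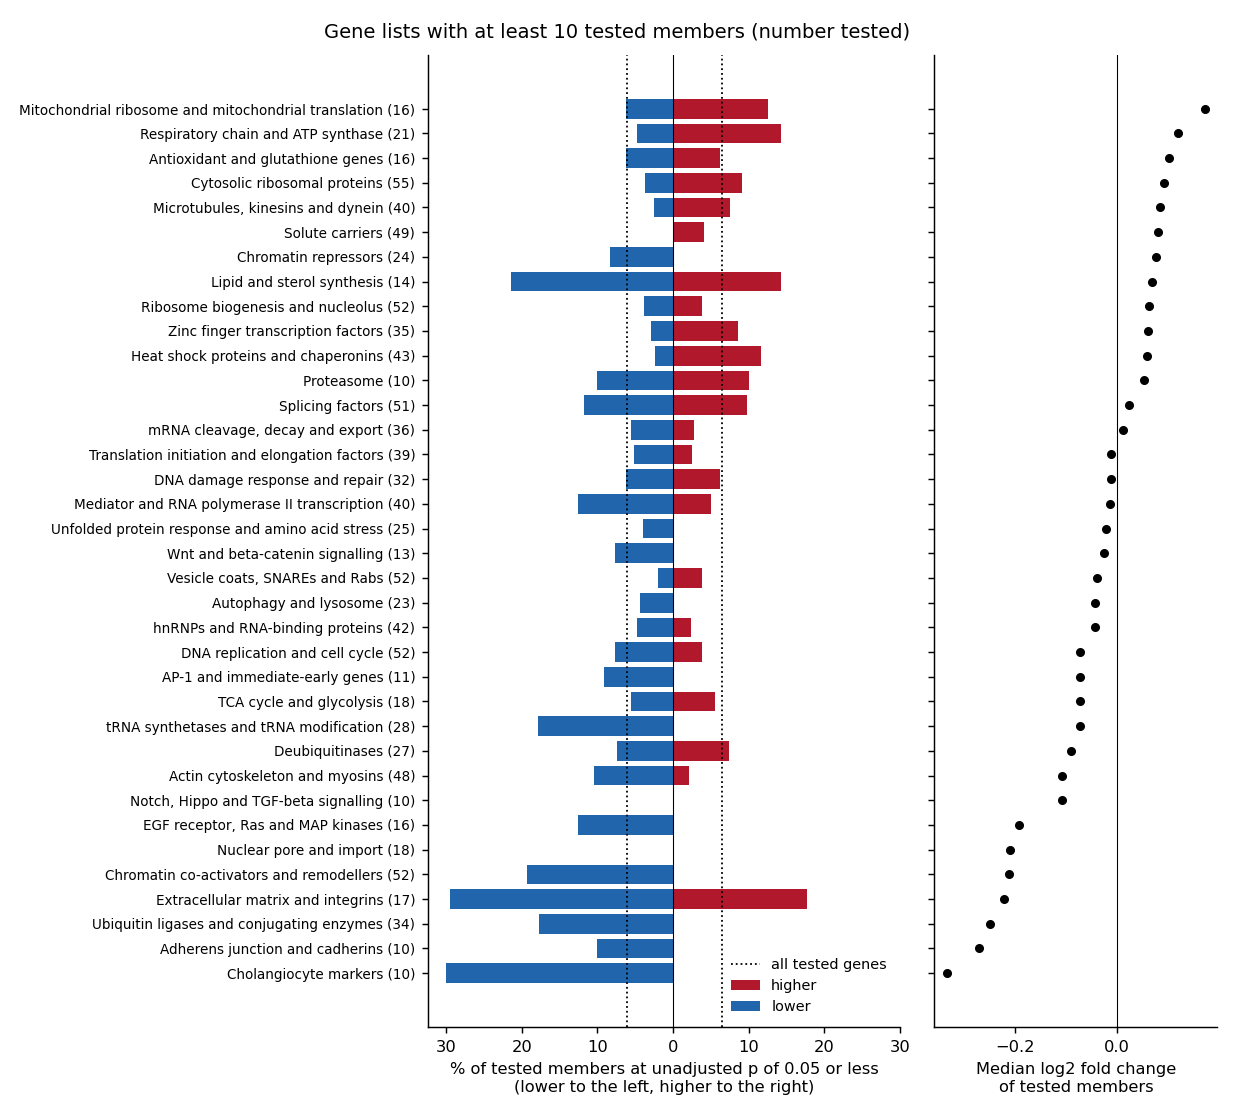
Gene lists with at least 10 tested members (number tested in brackets), ordered by median log2 fold change. Bars show the percent of tested members that were lower (blue, left) or higher (red, right) at an unadjusted p, dotted lines the same over all 3484 tested genes (6.08% lower, 6.43% higher), and black points the median log2 fold change. Chromatin co-activators (10 of 52 lower, none higher) and ubiquitin ligases (6 of 34 lower, none higher) lie to the left.

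Over all 47 lists, 13 had a called member. Of the 54 called genes, 36 were in no list. The share of counts taken by a list did not overlap between the groups for 7 lists that were higher and 14 that were lower in si-Ctnnb1. Among single tested genes 17.8% had groups that did not overlap. Rn45s and Map3k12 took most of the counts of their lists, and the leukocyte markers overlapped without Cd14. Some genes are in several lists, and no list was tested.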

How the data were processed

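Total RNA of SMCC cells was sequenced by the authors in 12 libraries. Per the labels and the study's methods, reads were trimmed with Trimmomatic 0.38, aligned to mm10 with HISAT2 2.1.0 and counted per gene with HTSeq 0.11.2. The strand setting and library kit were not given in the sources used here. The deposited table holds raw counts per gene, one column per library. Here the 3 si-CTL and 3 si-Ctnnb1 columns were fitted with edgeR 4.0.16 (R 4.3.3): filterByExpr (minimum count 10, minimum total 15), TMM scaling, the quasi-likelihood test and Benjamini-Hochberg adjustment over 3484 genes. The biological coefficient of variation was 15.65%. An exact permutation test of 3 against 3 libraries cannot go below p = 0.1. Levels of genes in CPM are scaled by TMM, and summed marker levels by the library total. No multiple-test correction applies to unadjusted p-values, which only count list members.

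Gene models came from GENCODE M21 (98.4% of symbols matched). The fit was tested on simulated data. An overlap means exons on both strands at the same bases. Gene lists are described by counts and medians with no test over a list. The genes named by rule were Ctnnb1, up to 12 called genes with the largest rise and 12 with the largest fall, in each list the called members or else up to 3 with the smallest unadjusted p, the 10 most abundant genes, Cxcl5, Ccl2, Rela, Nfkb1, Cftr, Axin2 and Lgr5, and opposite-strand neighbours of these. Other genes were named after their values were seen, among them further list members, the genes called without every library, Gapdh and the markers. The members and lists were chosen with earlier results of these data known. Alternatives were DESeq2 1.42.0, other scaling and filters, a replicate block and libraries left out. Some results are not reported here.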

Additional observations from a re-analysis of the deposited data

How the results depend on the processing

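Direction held under every alternative run for the 54 called genes and for 125 others, which were list members past the unadjusted threshold or among the 10 most abundant genes. The 53 called genes other than Ctnnb1 lost their call in 146 of 682 alternative values. Ctnnb1 lost its call without si-CTL 2, without si-Ctnnb1 1 and without si-Ctnnb1 3. The 54 calls (28 higher, 26 lower) became 31 (13 higher) with all 12 libraries in 1 fit, where 146 genes were higher at an unadjusted p in place of 224. DESeq2 called 47, other size factors 51, removal of Rn45s 57, a filter on the mean count 60 and no filter 52. With no filter 731 of 13362 genes passed the unadjusted threshold, 366 higher and 365 lower, in place of 436 of 3484. Genes with no opposite-strand overlap gave 9 calls, 0 higher and 9 lower. With 1 library left out there were 31 to 57 calls, 17 to 29 higher and 13 to 29 lower, and the log2 fold change of Ctnnb1 lay between -4.08 and -1.99. In DESeq2, 7 of the 54 had their adjusted p missing, which were Ctnnb1, Ubr4, Ep300, Prrc2a, Angptl2, Cox15 and Cryz. The counts of list members and of length and abundance classes without single libraries, the sums without Cd14 or Map3k12, and the comparison of overlapping genes within common abundance classes were chosen after seeing the data.

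Replicate numbers did not pair the libraries: deviations of same-numbered libraries correlated at 0.014, -0.051 and -0.0055. With the replicate block there were 64 calls (31 higher) and Ctnnb1 stood at -2.69. List medians moved by more than their spread in 81 of 601 alternative values. Depth limits small changes to abundant genes, and no list was tested. Groups of 3 are too small for an outlier test.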

Other observations

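One group of neighbours was noticed after the calls were seen. In all, 21 tested genes overlap, on the opposite strand, an exon of a gene for ribosome biogenesis. Of these 21, 13 were higher at an unadjusted p of 0.05 or less in si-Ctnnb1, none was lower and 4 rose at an adjusted p below 0.05 (edgeR). The 4 were Tti2 (opposite Mak16), Srr (Tsr1), 9530027J09Rik (Utp14a) and Spag17 (Wdr3). The median log2 fold change of the 21 was 0.24. Of the 21, 15 were in the most abundant of 4 equal classes, and 11 of those 15 were higher, where 19.2% of all 639 overlapping genes of that class were higher with a median of 0.08. The 21 together took 2.57%, 2.7% and 2.55% of the counts in si-CTL and 3.12%, 3.32% and 3.28% in si-Ctnnb1. With any 1 library left out, 8 to 12 were higher and none lower.

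The ribosome biogenesis genes themselves did not share that pattern, with 2 of 52 tested genes higher and 2 lower. Among all tested genes 6.43% were higher and 6.08% lower. Tsr1 had a log2 fold change of -0.34 opposite Srr at 0.42, and Mak16 0.08 opposite Tti2 at 0.29. Which gene of each pair the counts belong to was not tested. The group was picked from these data, so its counts are a description and no test was made.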
